A study of Homo sapiens with 12 samples.

Results

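Tumour cells carry surface and secreted molecules that T cells, natural killer cells and macrophages read on contact, and the transcripts of 10 of them were followed here: CD274, PDCD1LG2, CD276, TNFRSF14, LGALS9, CEACAM1, ICAM1, PVR, NECTIN2 and CD47. They were found by symbol, and all 10 were among the 19293 genes of the table. The cells were HT1080, an established human fibrosarcoma line, in 4 groups of 3 libraries that were all harvested at 24 h. One group was untreated, one received IFNγ at 10 ng/ml, one received 20 Gy of radiation and the combination group received both. The labels name no genetic change and no other agent, and all groups were cultured alike.

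Checkpoint ligands engage inhibitory receptors that restrain lymphocytes, while adhesion molecules hold the 2 cells together long enough for recognition. IFNγ, which activated T and natural killer cells secrete, acts through JAK kinases and induces the transcription factor IRF1. Several checkpoint ligands are known targets of this pathway, PD-L1 (CD274) best of all, and radiation is often combined with drugs that block them.

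The labels name only tumour cells, and the markers were checked against this. The 7 mesenchymal markers summed to between 7810 and 8450 CPM (the count of a gene scaled to library size) in every library, although THY1 among them held only 8 counts over all 12. The 7 T and NK cell markers summed to at most 1.10 CPM. Over the 12 libraries CD4 held 43 counts, CD3D 21, CD3E 1 and CD3G 0. B cell markers summed to at most 1.31 CPM, epithelial markers to at most 4.62 CPM and endothelial markers to at most 2.18 CPM. The libraries held 9675126 to 11010656 counts. The 7 myeloid markers summed to 121 to 129 CPM in untreated, 141 to 143 in IFNγ, 171 to 178 in irradiated and 193 to 204 in combination libraries, nearly all of it CD68, a lysosomal protein that is not confined to myeloid cells. Irradiated replicate 2 stood apart, with 23 counts of the leukocyte marker PTPRC, 14 of LYZ, 7 of CD14 and 8 of MS4A1. It also held 59 counts of GBP5 and 8 of IDO1, both induced by IFNγ, against 10 and 3 of GBP5 and 1 and 1 of IDO1 in the other irradiated libraries. PTPRC reached 9 counts in combination replicate 3 and at most 3 in the other 10 libraries. The part of these reads in the results below was not tested. Where a named gene's change with radiation against untreated cells is given, its value without irradiated replicate 2 is given too.

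Promoter sequences were taken from RefSeq (GRCh38.p14), from 250 bases before to 50 bases after each start, and 9 of the 10 genes matched, all but PDCD1LG2. These 9 had 10 promoters, as CD276 had 2. A gene was counted if any of its promoters held a match, while the shares given beside are of promoters. The authors' notes name the hg19 generation of the genome, so these coordinates do not apply to the files. An interferon-stimulated response element, searched as GAAA, any 2 bases and GAAA on both strands, was found in 3 of the 9 genes against 3.57% of 35116 promoters. The gamma-activated site, TTCNNNGAA, was found in 2 of the 9 against 7.66% of promoters. These are CD274 (chr9:5450292-5450591, plus strand), LGALS9 (chr17:27630938-27631237, plus), CEACAM1 (chr19:42528432-42528731, minus) and ICAM1 (chr19:10270870-10271169, plus). They are shown because 3 of these genes rose from near silence and CD274 went in opposite directions with the 2 treatments, and the capitals mark the response elements and gamma-activated sites only:
CD274: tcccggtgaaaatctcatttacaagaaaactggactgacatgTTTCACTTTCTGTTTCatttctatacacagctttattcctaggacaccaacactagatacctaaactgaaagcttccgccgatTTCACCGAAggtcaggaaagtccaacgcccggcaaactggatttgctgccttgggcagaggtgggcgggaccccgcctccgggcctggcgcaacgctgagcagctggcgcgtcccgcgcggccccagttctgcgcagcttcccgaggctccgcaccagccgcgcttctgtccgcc
LGALS9: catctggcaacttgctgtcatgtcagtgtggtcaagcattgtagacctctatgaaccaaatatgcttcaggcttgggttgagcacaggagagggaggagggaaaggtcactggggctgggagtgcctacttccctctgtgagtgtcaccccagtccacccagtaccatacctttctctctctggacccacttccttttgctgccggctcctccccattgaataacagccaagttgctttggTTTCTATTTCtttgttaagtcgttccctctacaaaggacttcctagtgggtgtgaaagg
CEACAM1: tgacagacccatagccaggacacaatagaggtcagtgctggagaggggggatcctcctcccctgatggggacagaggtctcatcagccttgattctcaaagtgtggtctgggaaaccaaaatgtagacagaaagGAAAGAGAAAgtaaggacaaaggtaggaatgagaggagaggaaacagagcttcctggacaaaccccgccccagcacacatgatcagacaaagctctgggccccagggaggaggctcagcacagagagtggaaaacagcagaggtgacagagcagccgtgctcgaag
ICAM1: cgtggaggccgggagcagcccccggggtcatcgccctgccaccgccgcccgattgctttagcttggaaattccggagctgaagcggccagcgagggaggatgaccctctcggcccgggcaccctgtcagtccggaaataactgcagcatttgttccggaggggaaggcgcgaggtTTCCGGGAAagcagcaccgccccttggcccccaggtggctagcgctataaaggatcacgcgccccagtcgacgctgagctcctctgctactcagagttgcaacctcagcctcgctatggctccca

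In CD274 there were 2 overlapping response elements at positions -208 to -193 and a gamma-activated site at -125 to -117, counted from the start. LGALS9 held a response element from -9 to the first transcribed base, CEACAM1 one at -116 to -107, and ICAM1 a gamma-activated site at -75 to -67. NF-κB sites, searched by their usual consensus, occurred in CD276, TNFRSF14 and CEACAM1, 3 of 9 genes against 11.3% of promoters. No p53 half-site lay in these windows, against 6.63% of promoters. A match is a stretch of letters and was not tested as a binding site. Sites that depart from the searched letters would be missed, so a gene without a match, such as ICAM1 for NF-κB, may still hold one.

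Before treatment the 10 genes spanned a wide range of levels, compared here as CPM per kilobase of exon. PVR was highest at 46.7 ± 1.80 CPM per kilobase (SD, n = 3), followed by NECTIN2 (33.6 ± 2.01), CD276 (16.6 ± 0.489), CD47 (13.4 ± 0.940) and CD274 (8.57 ± 0.850). PDCD1LG2 stood at 3.15 ± 0.0882, TNFRSF14 at 0.505 ± 0.101 and ICAM1 at 0.139 ± 0.0553 CPM per kilobase. CEACAM1 and LGALS9 were near silence with 3 counts and 1 count over the 3 untreated libraries, and these 2 were the only neighbours in this order whose libraries overlapped. After the combination PVR still led at 61.6 ± 1.49 CPM per kilobase and CEACAM1 was last at 2.62 ± 0.307, with overlap between CD276 and ICAM1 and between LGALS9 and CEACAM1. After IFNγ alone ICAM1, PDCD1LG2, CD276 and CD274 lay together between 14.2 and 15.6 CPM per kilobase, each overlapping its neighbour. Exon lengths came from GENCODE release 29 and are approximate for these files.

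IFNγ raised 9 of the 10 genes and lowered CD276, by edgeR's quasi-likelihood test with Benjamini-Hochberg adjustment over 12160 genes. Over all genes tested 29.1% were called, 15.0% higher and 14.1% lower. In all 10 the libraries of the 2 groups did not overlap, which held for 19.8% of all genes in the higher and 19.7% in the lower direction. The median log2 fold change of the 10 genes was 1.65, and that of all genes -0.0052. All 10 passed the filter on low counts, but LGALS9 averaged 10 counts or more in only 2 groups and CEACAM1 and ICAM1 in only 3, so these 3 passed through the groups where they were high. Radiation called 3 of the 10 higher and 2 lower, where 56.1% of all genes were called, 27.9% higher and 28.2% lower. Libraries did not overlap for 30.4% of all genes in each direction. The combination called 8 higher and 0 lower, where 62.1% of all genes were called, 30.9% higher and 31.2% lower. All 8 had libraries that did not overlap, against 31.9% of all genes higher and 32.4% lower. The 3 comparisons share the untreated libraries. In bulk RNA a change in the share of cells expressing a gene and in its level per cell cannot be told apart. As CPM is scaled to library size, a change in total RNA per cell is not seen.

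**Figure D1:**
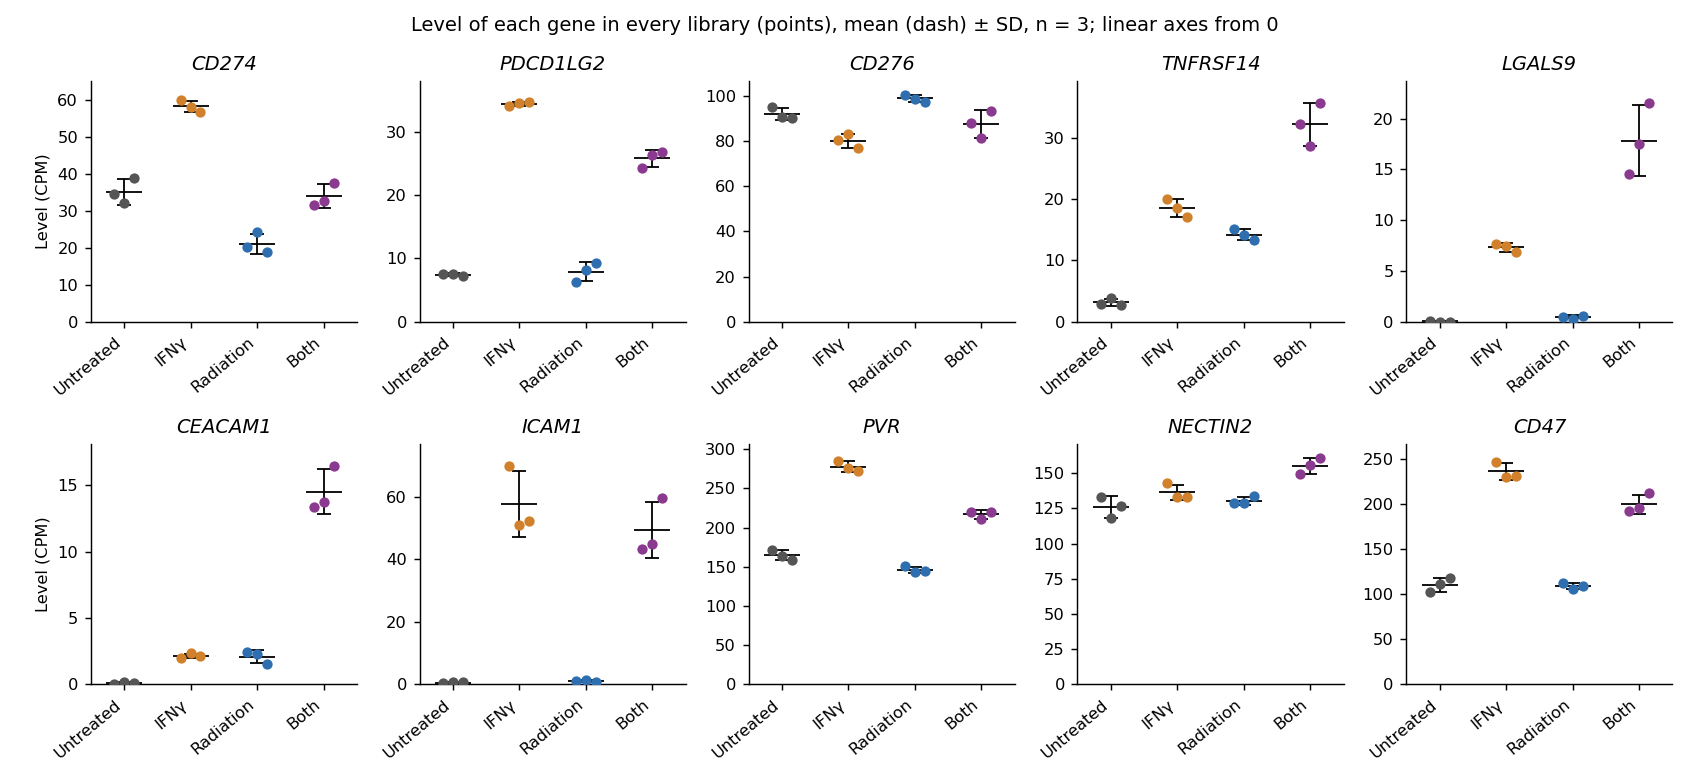
Level (CPM, linear axis from 0) of the 10 genes in every library, by group, with points for libraries and bars for the mean ± SD of 3. CD274 is highest with IFNγ (58.3 ± 1.60) and lowest with radiation (21.1 ± 2.77), while LGALS9 and CEACAM1 are highest with both treatments (17.8 ± 3.5 and 14.5 ± 1.70).

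CD274 encodes PD-L1, the main ligand of the inhibitory receptor PD-1. Its level was 34.5, 32.1 and 39.0 CPM in the untreated libraries, 60.0, 58.1 and 56.9 with IFNγ, 20.3, 24.2 and 18.9 with radiation and 31.7, 32.6 and 37.7 with both. The IFNγ libraries all lay above and the irradiated libraries all below the untreated ones, and the combination overlapped the untreated range. The log2 fold change was 0.73 ± 0.0688 (SE) with IFNγ (adjusted p = 2.04e-12) and -0.74 ± 0.0840 with radiation (adjusted p = 2.18e-10). With both it was -0.05 ± 0.0755 and was not called (adjusted p = 0.615). Without irradiated replicate 2, the highest of its group, the fall with radiation was larger at -0.85.

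PDCD1LG2 encodes PD-L2, the other PD-1 ligand, and lies next to CD274 on chromosome 9 in RefSeq. Untreated libraries held 7.60, 7.53 and 7.21 CPM and irradiated libraries 6.25, 8.23 and 9.23, so the groups overlapped. IFNγ libraries held 34.1, 34.5 and 34.8 CPM and combination libraries 24.3, 26.5 and 26.8. Each of these 2 groups lay wholly above the untreated one, and they did not overlap each other. PDCD1LG2 rose by 2.21 ± 0.0969 with IFNγ (adjusted p = 3.52e-27) and by 1.80 ± 0.102 with both (adjusted p = 1.63e-22). With radiation it was at 0.09 ± 0.134 (adjusted p = 0.597), and at 0.06 without irradiated replicate 2.

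The mix of PD-1 ligand transcripts differed between groups. The ratio of CD274 to PDCD1LG2 counts within a library averaged 4.74 ± 0.597 in untreated cells (SD, n = 3), 1.69 ± 0.0634 with IFNγ, 2.74 ± 0.624 with radiation and 1.31 ± 0.0865 with both. The ranges of the 4 groups did not overlap, with the lowest untreated ratio at 4.26 and the highest combination ratio at 1.40. Gene length cancels in these comparisons between groups, and no test was made.

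**Figure D2:**
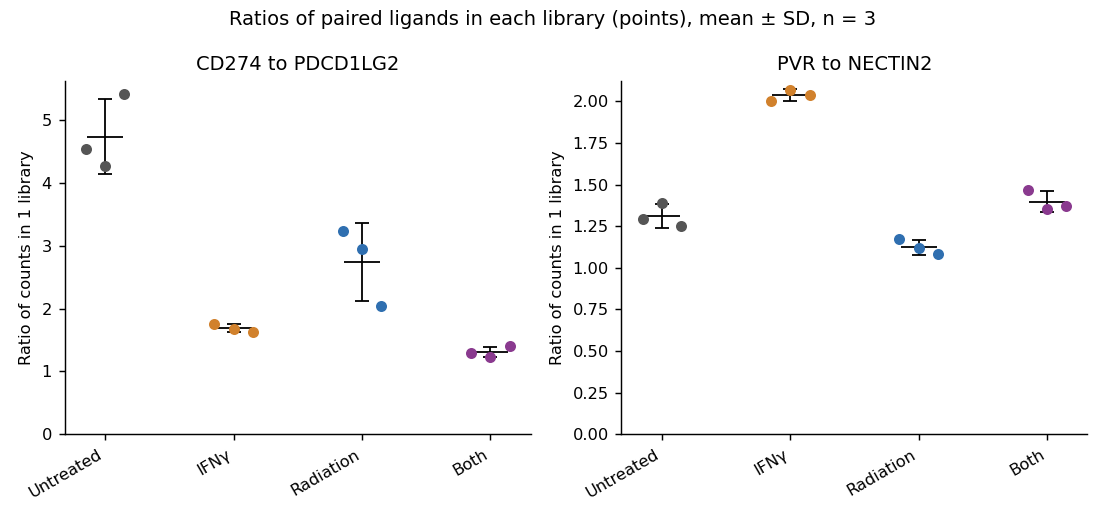
Ratio of counts within each library (points, linear axis from 0) with the mean ± SD of 3, for CD274 to PDCD1LG2 and for PVR to NECTIN2. The first ratio falls from 4.74 in untreated cells to 1.31 with both treatments, and the second is highest with IFNγ at 2.04.

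CD276 encodes B7-H3, a B7 family member of tumour cells whose receptor is not settled. Its log2 fold changes against untreated cells were at most 0.20 in size. Untreated libraries held 95.1, 90.6 and 90.2 CPM, IFNγ 80.5, 83.2 and 76.8, irradiated 100.4, 98.9 and 97.5, and combination 88.3, 81.2 and 93.6. IFNγ lowered it by a log2 fold change of -0.20 ± 0.0489 (adjusted p = 0.00113), with no overlap. With radiation it was at 0.10 ± 0.0475 and not called (adjusted p = 0.057), although the libraries did not overlap. It was called without untreated replicate 1 (0.13, adjusted p = 0.0253), when scaled by library totals (0.12, adjusted p = 0.0225) and when only these groups were fitted (0.11, adjusted p = 0.0445), and was at 0.10 without irradiated replicate 2. With both treatments it was at -0.07 ± 0.0480 (adjusted p = 0.211), and it was called as lower without combination replicate 3 (-0.12, adjusted p = 0.0467).

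Other B7 family ligands were scarce. Of 8 listed, 2 passed the filter, and CD80, CD86, ICOSLG, VTCN1, HHLA2 and BTNL2 had between 1 and 15 counts over all 12 libraries. VSIR, which encodes VISTA, fell with IFNγ from 1.55 ± 0.362 to 0.714 ± 0.0290 CPM (log2 fold change -1.10 ± 0.398, adjusted p = 0.0312). With both treatments VSIR was at 2.54 ± 1.01 CPM, higher than in untreated cells (0.72 ± 0.295, adjusted p = 0.0301) though the libraries overlapped. It was also higher than with IFNγ alone (1.82 ± 0.354, adjusted p = 1.52e-05). With radiation VSIR was not called (0.52 ± 0.308, adjusted p = 0.146), nor without irradiated replicate 2 (0.71, adjusted p = 0.0667).

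TNFRSF14 encodes the herpesvirus entry mediator, which engages the lymphocyte receptors BTLA and CD160. It rose with each treatment, from 2.81, 3.86 and 2.74 CPM to 20.0, 18.6 and 17.1 with IFNγ and to 15.0, 14.2 and 13.3 with radiation. The combination libraries held 32.3, 28.6 and 35.6 CPM. The 4 groups did not overlap. The log2 fold changes were 2.55 ± 0.140 with IFNγ (adjusted p = 8.94e-23), 2.17 ± 0.150 with radiation (adjusted p = 9.62e-19) and 3.35 ± 0.124 with both (adjusted p = 4.09e-31). Without irradiated replicate 2 the radiation value was 2.16. The annotated antisense gene TNFRSF14-AS1 covers 13.4% of its exon length, and the strand setting of the counting is not given in the sources used here, so reads of the 2 genes cannot be told apart.

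LGALS9 encodes galectin-9, a secreted lectin that binds TIM-3 on T cells among other glycoproteins. It had 1, 0 and 0 counts in the untreated libraries, 77, 80 and 68 with IFNγ, 5, 3 and 6 with radiation and 148, 185 and 234 with both. The groups did not overlap. Against the single untreated count the ratio was 228 with IFNγ (exact 95% interval 40.4 to 9030), 14.5 with radiation (2.2 to 611) and 557 with both (99.7 to 22100), where the intervals cover counting error only. All 3 were called, with adjusted p of 3.86e-20, 0.00199 and 1.15e-28. The fitted log2 fold changes of 7.37, 3.43 and 8.66 became 9.23, 5.29 and 10.52 without untreated replicate 1, which held the single count, so they set no bound. Without irradiated replicate 2 the radiation value was 3.65. Reads can be shared with the near-identical copies LGALS9B and LGALS9C, which had at most 6 and 3 counts in a library, and 5.15% of its exon length overlaps another annotated gene on the same strand.

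CEACAM1, an adhesion molecule that inhibits lymphocytes through contact with itself and is a proposed TIM-3 ligand, had 0, 2 and 1 counts in untreated libraries. It had 20, 25 and 21 counts with IFNγ and 24, 23 and 16 with radiation. With both treatments it had 136, 145 and 179 counts. The single treatments gave overlapping counts, and every combination library exceeded every library of the other groups. Against the 3 untreated counts the ratio was 22.3 with IFNγ (exact 95% interval 7.29 to 111), 21.7 with radiation (7.09 to 108) and 151 with both (51.3 to 734). The adjusted p were 3.82e-10, 2.35e-10 and 4.10e-28. The fitted log2 fold changes of 4.31, 4.28 and 7.07 became 5.15, 5.11 and 7.90 without untreated replicate 2, and without irradiated replicate 2 the radiation value was 4.20. None of the 11 other listed CEACAM genes passed the filter, and CEACAM19 was highest among them at 9 counts in a library.

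ICAM1 encodes the ligand of the integrin LFA-1 and anchors the contact between a T cell and its target. It had 3, 7 and 6 counts in untreated, 706, 546 and 521 in IFNγ, 11, 13 and 7 in irradiated and 442, 477 and 650 in combination libraries. IFNγ with or without radiation thus took it from near silence to 57.7 ± 10.5 and 49.4 ± 8.98 CPM (SD, n = 3). The log2 fold changes were 6.78 ± 0.382 (adjusted p = 8.53e-07) and 6.56 ± 0.395 (adjusted p = 4.26e-07). With radiation it was at 0.98 ± 1.06 and was not called (adjusted p = 0.467). Counts met at 7, while in CPM the lowest irradiated library (0.680) lay just above the highest untreated one (0.659). It was at 0.78 without irradiated replicate 2, which held the most counts of its group. An annotated antisense gene covers 22% of its exon length.

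Of 13 other adhesion molecules listed, 8 were tested, with 0 higher and 4 lower with IFNγ and 6 higher and 1 lower with radiation. Over all genes 15.0% were called higher and 14.1% lower with IFNγ, and 27.9% and 28.2% with radiation. Without irradiated replicate 2 the radiation counts of these 8 were 6 and 0. ICAM2 was at -0.36 ± 0.397 with IFNγ (adjusted p = 0.544) and rose by 0.99 ± 0.320 with radiation (adjusted p = 0.00711), or 0.92 without irradiated replicate 2.

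PVR encodes CD155, which engages the inhibitory receptor TIGIT and the activating receptor DNAM-1. Its libraries held 171.1, 163.8 and 158.5 CPM untreated, 285.2, 276.1 and 272 with IFNγ, 150.5, 143.5 and 144 with radiation and 220.0, 210.7 and 219.5 with both. The groups did not overlap. PVR rose by 0.76 ± 0.0363 with IFNγ (adjusted p = 2.41e-25) and by 0.40 ± 0.0370 with both (adjusted p = 5.75e-14). It fell with radiation, -0.17 ± 0.0389 (adjusted p = 0.000144), and by -0.16 without irradiated replicate 2. Exons of CEACAM19 overlap 3.44% of its exon length.

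NECTIN2 encodes CD112, which shares TIGIT and DNAM-1 with PVR and also binds PVRIG. Untreated libraries held 133.1, 118.1 and 126.5 CPM, IFNγ 142.7, 133.3 and 133.2, irradiated 128.9, 128.5 and 133.4, and combination 149.5, 155.5 and 160.4. With both treatments it rose by 0.30 ± 0.0422 (adjusted p = 1.24e-08), without overlap. The rise with IFNγ alone was 0.12 ± 0.0430 (adjusted p = 0.0352) and did not hold in DESeq2 (adjusted p = 0.102), with library totals (0.06, adjusted p = 0.318), with only the groups compared (adjusted p = 0.062) or without untreated replicate 2, untreated replicate 3 or IFNγ replicate 1 (log2 fold changes of 0.07, 0.12 and 0.07, adjusted p = 0.248, 0.0656 and 0.296). With radiation it was at 0.05 ± 0.0433 (adjusted p = 0.338), and at 0.06 without irradiated replicate 2.

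The ratio of PVR to NECTIN2 counts was 1.31 ± 0.0697 in untreated libraries (SD, n = 3), 2.04 ± 0.0370 with IFNγ, 1.12 ± 0.0441 with radiation and 1.40 ± 0.0639 with both. The IFNγ libraries, from 2.0 to 2.07, lay above all others, and the irradiated libraries, from 1.08 to 1.17, below all others. Of 7 listed nectins and nectin-like molecules 4 were tested, with 0 higher and 3 lower with IFNγ and 3 higher and 0 lower with radiation. Of all genes 14.1% were called lower with IFNγ and 27.9% higher with radiation. NECTIN4 was at 4.45 ± 0.641 CPM untreated and 46.6 ± 1.42 with radiation (log2 fold change 3.38 ± 0.0979, adjusted p = 6.59e-36), and CADM1, a ligand of the lymphocyte receptor CRTAM, rose by 1.21 ± 0.0517 (adjusted p = 9.85e-28). Without irradiated replicate 2 they were at 3.40 and 1.21.

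CD47 encodes the signal by which cells hold off macrophages through SIRPα. Its libraries held 102.3, 111.8 and 117.7 CPM untreated, 247.4, 230.9 and 232 with IFNγ, 112.9, 105.8 and 108.9 with radiation and 192.7, 195.7 and 212.2 with both. Both groups with IFNγ lay above both groups without it, which overlapped. CD47 rose by 1.10 ± 0.0433 with IFNγ (adjusted p = 1.69e-27) and by 0.86 ± 0.0439 with both (adjusted p = 3.48e-23). With radiation it was at -0.02 ± 0.0475 (adjusted p = 0.78), and at 0.00 without irradiated replicate 2. Of 7 partners and enzymes of CD47, 1 was higher and 4 lower with IFNγ and 3 higher and 1 lower with radiation. Among all genes 29.1% were called with IFNγ and 56.1% with radiation. Without irradiated replicate 2 the radiation counts of the 7 were 2 and 1. LRP1, a receptor that takes up material bound by calreticulin, rose by 1.82 ± 0.0411 with radiation (adjusted p = 9.66e-39), or 1.85 without irradiated replicate 2. SIRPG was at 1.42 ± 0.541 (adjusted p = 0.0217) from 0.289 ± 0.0131 CPM, and was not called without that library (1.23, adjusted p = 0.0968). SIRPG held 9 counts untreated, 12 with IFNγ, 24 with radiation and 29 with both. It passed the filter on low counts only through the irradiated groups, where it was high.

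**Figure D3:**
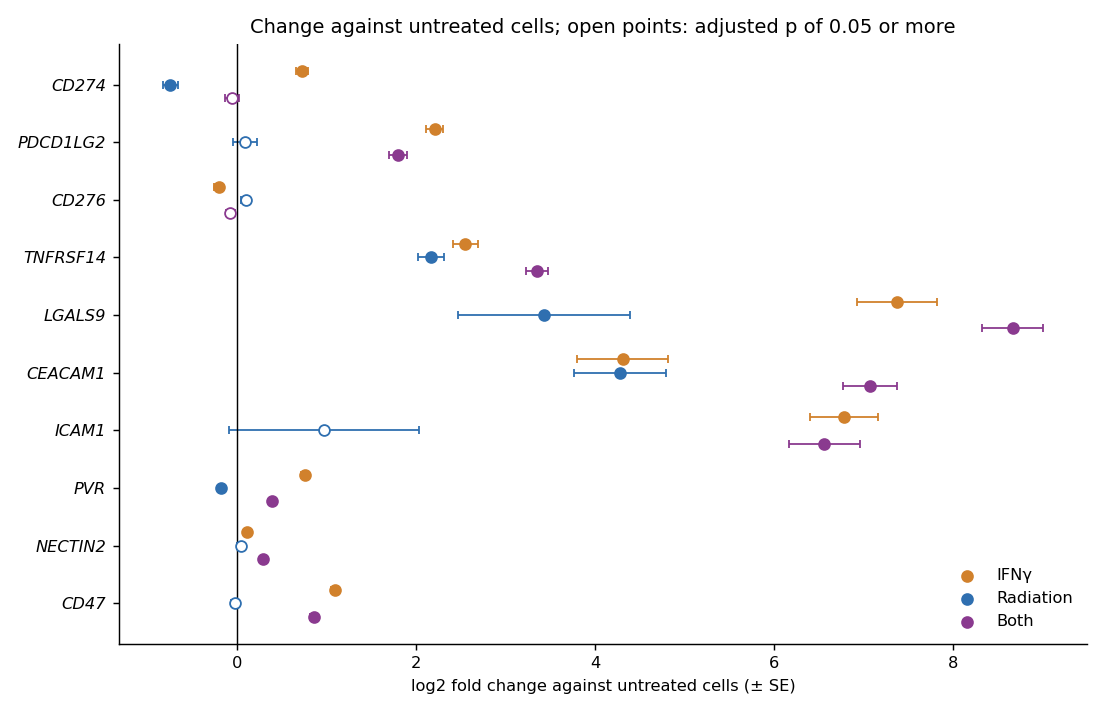
Log2 fold change against untreated cells (± SE, 3 libraries per group) for IFNγ, radiation and both, with open points where the adjusted p was 0.05 or more. CD274 lies at 0.73, -0.74 and -0.05, and the values of LGALS9 and CEACAM1 rest on 1 and 3 untreated counts.

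The comparison of the combination with IFNγ alone asked what radiation did in cells that were also given the cytokine. In this comparison 5 of the 10 genes were higher, 4 lower and ICAM1 was not called, where 60.7% of all genes were called, 30.3% higher and 30.4% lower. The median of the 10 was -0.05, and that of all genes 0.00054. Both PD-1 ligands, PVR and CD47 fell: CD274 by a log2 fold change of -0.78 ± 0.0689 (adjusted p = 1.11e-13), PDCD1LG2 by -0.41 ± 0.0743 (adjusted p = 3.15e-06), PVR by -0.36 ± 0.0352 (adjusted p = 4.30e-13) and CD47 by -0.24 ± 0.0403 (adjusted p = 1.06e-06). The libraries of the 2 groups did not overlap for any of these 4, against 32.2% of all genes. CEACAM1 rose by 2.75 ± 0.164 (adjusted p = 1.78e-21), LGALS9 by 1.29 ± 0.124 (adjusted p = 3.50e-13), TNFRSF14 by 0.80 ± 0.0843 (adjusted p = 5.08e-12) and NECTIN2 by 0.19 ± 0.0418 (adjusted p = 0.000128), again without overlap, against 31.9% of all genes.

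The remaining 2 genes rested on single libraries. CD276 was higher by 0.13 ± 0.0491 (adjusted p = 0.0199) with overlapping libraries, and was not called without IFNγ replicate 3 (0.10, adjusted p = 0.114) or combination replicate 3 (0.08, adjusted p = 0.211). ICAM1 was at -0.22 ± 0.152 (adjusted p = 0.246), and was called as lower without combination replicate 3 (-0.38, adjusted p = 0.00783). Combination replicate 3 was the highest of its group for 9 of the 10 genes and also held the most GBP5 of its group, an IFNγ-induced GTPase, with 10312 counts against 6857 and 7689. Without it CD274 was at -0.86, PDCD1LG2 at -0.44, LGALS9 at 1.13 and CEACAM1 at 2.65. On the other side of this comparison, IFNγ replicate 1 was the highest of its group for 7 of the 10 genes. It held 10915 counts of GBP5 against 8836 and 8067 in the other IFNγ libraries.

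The comparison of the combination with radiation alone asked what IFNγ did in irradiated cells. All 10 genes were called, 9 higher and CD276 lower, where 26.9% of all genes were called, 14.5% higher and 12.4% lower. Libraries did not overlap for 20.5% of all genes in the higher and 19.8% in the lower direction. CD274 rose by 0.69 ± 0.0843 (adjusted p = 4.06e-09), PDCD1LG2 by 1.71 ± 0.102 (adjusted p = 3.78e-21), CD47 by 0.88 ± 0.0441 (adjusted p = 6.29e-23) and PVR by 0.57 ± 0.0377 (adjusted p = 3.23e-19). LGALS9 rose by 5.23 ± 0.227 (adjusted p = 1.66e-26), ICAM1 by 5.57 ± 0.351 (adjusted p = 2.18e-06), CEACAM1 by 2.79 ± 0.166 (adjusted p = 3.79e-21) and TNFRSF14 by 1.18 ± 0.0897 (adjusted p = 8.29e-17). The changes of NECTIN2 (0.25 ± 0.0422) and CD276 (-0.17 ± 0.0477) were the smallest. That of CD276 was not called without combination replicate 2 (-0.12, adjusted p = 0.0895).

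**Figure D4:**
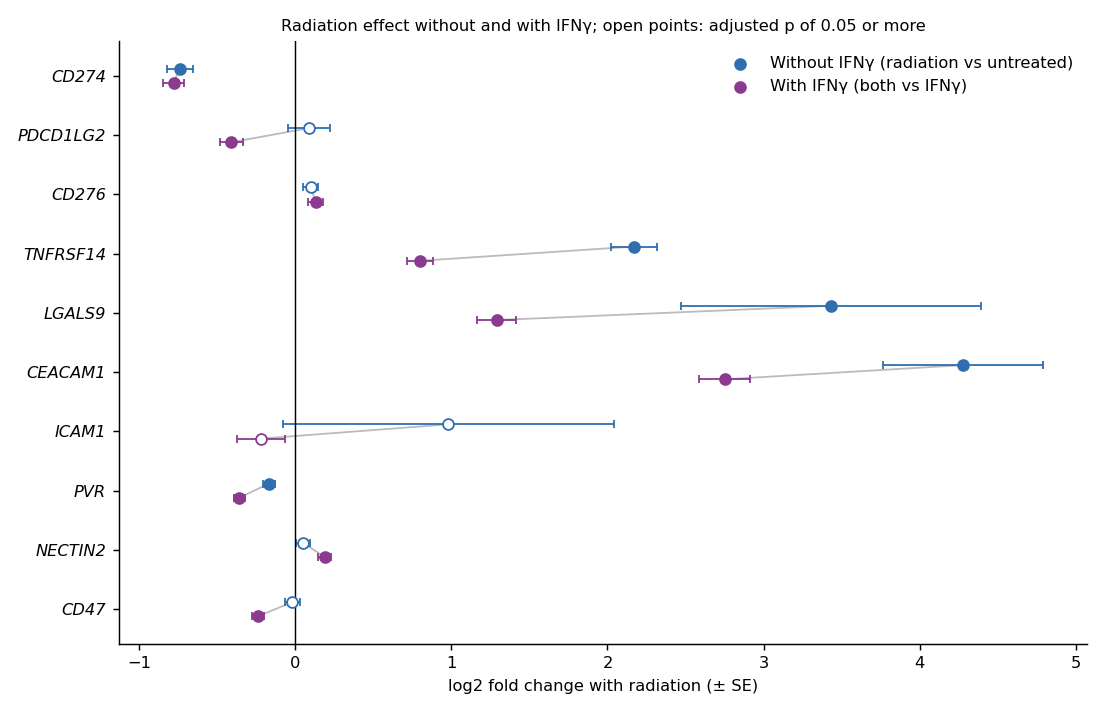
Log2 fold change with radiation (± SE, 3 libraries per group) without IFNγ and with it, with open points where the adjusted p was 0.05 or more. CD274 falls by a like amount in both (-0.74 and -0.78), and TNFRSF14 rises by 2.17 without and 0.80 with IFNγ.

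The interaction is the difference between the IFNγ response of irradiated and of unirradiated cells on the log2 scale. It was called for 3 of the 10 genes, all lower, where 2.38% of all genes were called, 0.995% lower and 1.38% higher. TNFRSF14 had an interaction of -1.37 ± 0.179 (adjusted p = 4.38e-07), which ranged from -1.55 to -1.29 as single libraries were left out and was -1.37 without irradiated replicate 2. PVR (-0.19 ± 0.0525, adjusted p = 0.0392) and CD47 (-0.22 ± 0.0622, adjusted p = 0.0377) were near the threshold. Both calls ended in DESeq2 (adjusted p = 0.0856 and 0.0973) and with library totals (0.0647 and 0.0537). They also ended in 8 and 7 of the 12 fits that left out a library. For CD274 the interaction was -0.04 ± 0.11 (adjusted p = 0.896). PDCD1LG2 was at -0.50 ± 0.153 (adjusted p = 0.0671) and was called without irradiated replicate 1 (-0.64, adjusted p = 0.017). The values of LGALS9 (-2.14 ± 1.01, adjusted p = 0.307), CEACAM1 (-1.52 ± 0.670, adjusted p = 0.259) and ICAM1 (-1.20 ± 1.07, adjusted p = 0.671) rest on 1, 3 and 16 untreated counts. That of LGALS9 was -4.00 without untreated replicate 1, and that of CEACAM1 -2.36 without untreated replicate 2.

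The log2 interaction compares the combination with the product of the single effects, and the picture differs on the linear scale of CPM. The sum of single effects is the IFNγ level plus the irradiated level minus the untreated level. For CEACAM1 this sum was 4.14 ± 0.296 CPM (SE) and the combination held 14.5 CPM, 3.5 times the sum and an excess of 10.4 ± 1.02 CPM. For LGALS9 the sum was 7.73 ± 0.260 CPM against 17.8, an excess of 10.1 ± 2.04 CPM. In both genes every combination library lay above the sum. TNFRSF14 lay near its sum, 32.2 against 29.6 ± 1.04 CPM, and far below the product of its single effects, 83.7 CPM.

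CD274 (34.0 against a sum of 44.2 ± 2.73 CPM), PDCD1LG2 (25.9 against 35.0 ± 0.907), PVR (217 against 259 ± 5.81) and CD47 (200.2 against 235 ± 7.25) lay below their sums in every combination library. CD274 was close to its product of 35.0 CPM. ICAM1 at 49.4 CPM overlapped its sum of 58.2 ± 6.09 CPM, as did CD276 at 87.7 against 87.1 ± 2.57. NECTIN2 exceeded its sum of 141 ± 5.58 CPM by 14.3 ± 6.41 CPM, and every combination library lay above it. These linear values are a description with no test.

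**Figure D5:**
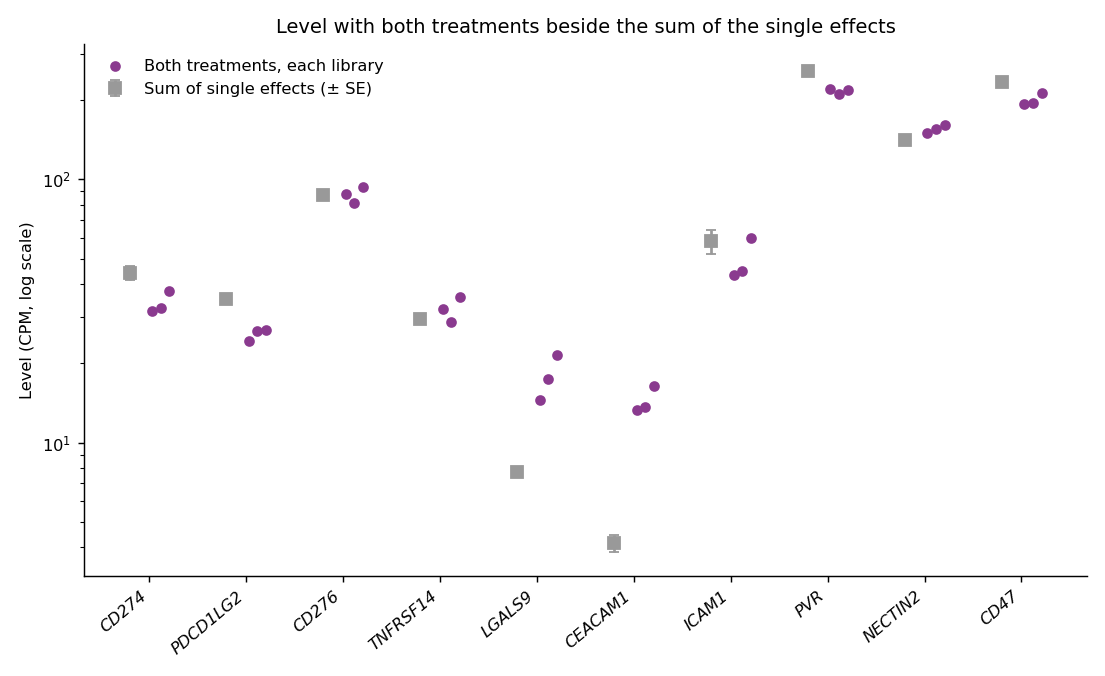
Level with both treatments in each library (points) beside the sum of the single effects (squares ± SE), in CPM on a log axis, with 3 libraries per group. LGALS9, CEACAM1 and NECTIN2 lie above their sums in every library and CD274, PDCD1LG2, PVR and CD47 below, and heights of different genes are not comparable because length is not divided out.

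Among 19 known controllers of PD-L1, 9 were higher and 2 lower with IFNγ, where 29.1% of all genes were called. With radiation 5 were higher and 5 lower, or 5 and 4 without irradiated replicate 2, against 56.1% of all genes. The combination called 10 higher and 6 lower, against 62.1% of all genes. Against IFNγ alone the combination called 6 higher and 6 lower, where 60.7% of all genes were called. MYC fell with radiation (-1.07 ± 0.0676, adjusted p = 2.33e-20), and was at -1.06 without irradiated replicate 2. In the fit without that library MYC was also at -1.06 in the combination against IFNγ (adjusted p = 8.83e-19). IRF1 rose by 4.81 ± 0.169 with IFNγ (adjusted p = 1.92e-08). With radiation IRF1 was at 0.34 ± 0.315 (adjusted p = 0.392), and at 0.22 without irradiated replicate 2. In the combination against IFNγ it was at -0.13 ± 0.0973 (adjusted p = 0.291). JAK2 was at 0.02 ± 0.11 and the feedback inhibitor SOCS1 at -0.02 ± 0.275 in the combination against IFNγ, neither called (adjusted p = 0.89 and 0.948). CMTM6, which protects PD-L1 protein from breakdown, fell slightly in that comparison (-0.11 ± 0.0349, adjusted p = 0.00458).

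Of 12 listed costimulatory or coinhibitory ligands, mostly of the TNF family, 4 were tested. With radiation 2 were higher and 1 lower, where 56.1% of all genes were called. With IFNγ 1 was higher and 3 lower, against 29.1% of all genes. TNFSF9, the ligand of 4-1BB, went from 15.8 ± 1.10 to 64.1 ± 0.720 CPM with radiation (2.02 ± 0.0708, adjusted p = 7.40e-32) and fell with IFNγ (-0.32 ± 0.0981, adjusted p = 0.00991). CD70, the ligand of CD27, rose by 1.61 ± 0.0609 with radiation (adjusted p = 2.58e-30) and fell with IFNγ (-0.34 ± 0.0780, adjusted p = 0.000563). In irradiated cells IFNγ raised both, TNFSF9 by 0.18 ± 0.0531 (adjusted p = 0.00603) and CD70 by 0.16 ± 0.0494 (adjusted p = 0.0122). Their interactions were called higher, at 0.50 ± 0.112 (adjusted p = 0.00462) and 0.49 ± 0.0923 (adjusted p = 0.000597). Without irradiated replicate 2 the changes with radiation were 2.01 for TNFSF9 and 1.63 for CD70. In that fit the rise of CD70 with IFNγ in irradiated cells was not called (0.13, adjusted p = 0.0807), while that of TNFSF9 was (0.19, adjusted p = 0.0205). Both interactions stayed called, at 0.50 for TNFSF9 (adjusted p = 0.0119) and 0.47 for CD70 (adjusted p = 0.00297). Of 9 other galectins and galectin-binding genes 4 were tested, with 2 higher and 0 lower with IFNγ and 3 and 0 with radiation. Among all genes 15.0% were called higher with IFNγ and 27.9% with radiation. LGALS3BP rose by 1.35 ± 0.0397 with IFNγ (adjusted p = 3.94e-30) and by 0.46 ± 0.0417 with radiation (adjusted p = 7.63e-13), or 0.47 without irradiated replicate 2.

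Most of the listed receptors that read these ligands were scarce in the tumour cells. SIRPA, which encodes the CD47 receptor SIRPα and was listed with the CD47 partners, was not, at 40.7 ± 1.82 CPM untreated. Of 14 receptors listed, 3 passed the filter, and PDCD1, BTLA and CTLA4 had 2 counts each over the 12 libraries. With radiation PVRIG and ITGB2, a chain of LFA-1, were called higher, where 27.9% of all genes were, in the group whose replicate 2 held the leukocyte reads. PVRIG, which binds NECTIN2, was at 0.569 ± 0.330 CPM untreated and 1.33 ± 0.171 with radiation (1.18 ± 0.437, adjusted p = 0.0184). Its counts were 18 untreated, 14 with IFNγ, 40 with radiation and 31 with both. It passed the filter on low counts only through the irradiated groups, where it was high. Without irradiated replicate 2 PVRIG was not called (1.08, adjusted p = 0.0649). ITGB2 was then at 0.51 (adjusted p = 0.0143) in place of 0.62 ± 0.160 (adjusted p = 0.000839). With IFNγ 0 of the 3 were called, against 29.1% of all genes.

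The genes whose log2 CPM followed each of the 10 most closely over the 12 libraries are given as a description, by Pearson's r. The 12 libraries fall into 4 treatment groups, so a high r mostly records a like order of the groups. ICAM1 was closest to IL18BP (0.9989), PDCD1LG2 to NMI (0.9937) and HLA-DPA1 (0.993), CD47 to IFI16 (0.9961) and PVR to TNC (0.9952). TNFRSF14 was closest to STAT3 (0.9944), LGALS9 to LGALS3BP (0.9976) and CEACAM1 to BCL2L13 (0.9921). CD274 was closest to OTUD4 (0.9824) and PGAM1 (0.9814), and NECTIN2 (MKNK2, 0.9722) and CD276 (KRT81, 0.9284) had the lowest values.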

How the data were processed

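RNA of 12 HT1080 samples, 3 in each of 4 groups, was sequenced. Per the labels' protocols, ribosomal RNA was removed and stranded libraries were sequenced as paired ends. The authors deposited raw counts per protein-coding gene, and 0 columns were left unmatched to a library. The submitters' processing notes list hg19 and the tools Cuffdiff 2.2.1, Cufflinks, TopHat2 2.0.13 and FastQC 0.11.3. Which tool counted, with what strand setting and annotation, is not given in the sources used here. The first 4 column names are shifted by 1 place and were read by content.

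The counts went into edgeR 4.0.16 (R 4.3.3): filterByExpr (12160 genes kept), TMM scaling, and 1 robust quasi-likelihood fit over all 12 libraries. Benjamini-Hochberg adjustment ran over the whole table, with calls at an adjusted p under 0.05. Each standard error was taken as the size of the log2 fold change over the root of its F statistic, an approximation that is rough for genes with few counts in a group. CPM uses TMM-scaled totals. For groups with 1 to 3 counts, count ratios carry exact 95% intervals. The fit was tested on simulated data. The labels do not say whether replicates were separate cultures, so the spread behind the p-values may be technical.

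The 10 genes and all lists were chosen with earlier results of these data known. Genes named outside the 10 were called with an absolute log2 fold change of at least 1 against untreated cells (at most 3 per list), with NECTIN4, IRF1, JAK2 and CMTM6 added. SIRPA, ITGB2 and MYC are outside this rule and were added after the values were seen. A further gene that the rule names is not reported here. Scarce genes named by their counts, the leukocyte markers and GBP5, and the linear sums and the ratios were chosen after the values were seen. Likeness was sought among genes averaging at least 2 in log2 CPM (prior count 2). Alternatives were DESeq2 1.42.0, library totals, no filter, a replicate block, only the groups compared, and leaving out each library. The values of related genes without irradiated replicate 2 were added after the data were seen.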

Additional observations from a re-analysis of the deposited data

Results flagged for a closer look

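The effect of IFNγ differed between irradiated and unirradiated cells for 3 of the 10 genes, by the interaction term of the edgeR fit, where 2.38% of all genes were called and 0.995% called lower. DESeq2 and scaling by library totals each left 1 of the 10, TNFRSF14. TNFRSF14 had an interaction of -1.37 on the log2 scale (adjusted p = 4.38e-07), with a rise of 2.55 with IFNγ in unirradiated and 1.18 in irradiated cells. PVR had -0.19 (adjusted p = 0.0392), from 0.76 to 0.57. CD47 had -0.22 (adjusted p = 0.0377), from 1.10 to 0.88. In each case all 3 libraries with IFNγ were above their controls in both settings. The latter 2 calls ended under several alternatives, given in the report.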

How the results depend on the processing

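Limits: each group has 3 libraries, LGALS9 and CEACAM1 rest on 1 and 3 untreated counts, and strand and counting tool are unknown. The number of the 10 genes called stayed within 1.5 times in the 5 pairwise comparisons under every alternative run. For the interaction it went from 3 to 1 in DESeq2 and to 1 with library totals, and ran from 1 to 3 as libraries were left out (1 without IFNγ replicate 1, irradiated replicate 2 or 3, or combination replicate 2). All genes called for the interaction went from 289 to 159 in DESeq2 and ran from 161 to 332 as libraries were left out, with 161 without irradiated replicate 2 and 179 without combination replicate 2. The cause was not tested.

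Values that changed sign as libraries were left out were not called in those fits. The interaction of CD274 ran from -0.12 to 0.07 and was above 0 without untreated replicate 2 (0.02), irradiated replicate 2 (0.07) or combination replicate 1 (0.01). CD274 with both treatments ran from -0.13 to 0.03 (0.03 without untreated replicate 3), CD47 with radiation from -0.07 to 0.03 (0.03 without untreated replicate 3) and PDCD1LG2 with radiation from -0.04 (without irradiated replicate 3) to 0.23. The interaction of CD276 ran from -0.03 (without combination replicate 3) to 0.08.

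Library totals in place of TMM moved the median of all genes by at most -0.0576 (log2). Among called genes they took the higher share from 51.6% to 31.1% with IFNγ, from 53.9% to 38.0% for the combination against radiation and from 58.1% to 69.4% for the interaction. Same-numbered libraries did not deviate together (r over 0.1 in 2 of 18 pairs, and 3 of 12 libraries correlated best with their own number). A replicate block left 10, 5, 8, 9, 10 and 3 of the genes called in the 6 comparisons, as without it, and 276 of all genes for the interaction.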
